A study of Mus musculus with 234 samples.

Results

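The 10 genes described here form the core and the first output of the circadian clock: Arntl, Clock, Per1, Per2, Cry1, Nr1d1, Nr1d2, Dbp, Tef and Ciart. They were taken by name from a table of 55538 features, of which 23664 had a count in at least 1 cell, and all 10 names were found. The values are read counts of single cardiomyocytes (CMs), sequenced with SMART-seq2, a protocol without molecular identifiers that covers the length of a transcript. The study asked what a human BAG3 protein with the P209L mutation, fused to eGFP, does to the heart. Transcription of the construct is driven by the CAG promoter in the Rosa26 locus, in a line derived from 1 embryonic stem cell clone, and the ubiquitous PGK-Cre removes the STOP cassette.

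Control CMs, of strain C57BL/6 by the labels, were 24 cells of mouse M26 and 9 cells of mouse M73, both titled wt. According to the study's methods, siblings without the active transgene served as controls and could be wild type, PGK-Cre or carriers of the floxed construct. For the transgenic lines the methods give a mixed background of 129S6/SvEvTac, C57BL/6Ncr and CD-1, which siblings share, whereas the labels of the controls name C57BL/6 alone. Homozygous CMs, of strain PGKcre:BAG3P209L_homo, came from mouse M25 (21 cells labelled bright and 18 labelled dim) and mouse M116 (59 bright and 50 dim). The heterozygous CMs, labelled het_bright and het_dim, came from mouse M72 alone (27 and 26 cells). Homozygous mice have 2 floxed alleles, of which 1 or 2 have lost the STOP cassette. The labels name no treatment. Hearts were dissociated by enzyme perfusion, after which the atria were taken off, and CMs were picked by hand. Control and homozygous mice were 2 weeks old by the text of the study, and the age of mouse M72 is not given in the sources used here. The time of day at which the hearts were taken, which sets the level of clock genes, is not given either, so phase and genotype cannot be told apart. Cells of 1 mouse and label were summed into 1 value, which gave 8 sums from 5 mice, and the mouse is the replicate.

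In mammalian cells, BMAL1 (encoded by Arntl) pairs with CLOCK, and the pair binds E-boxes and drives transcription of the Per, Cry, Nr1d, Dbp, Tef and Ciart genes. PER and CRY proteins feed back on the pair and shut it down, while the nuclear receptors encoded by Nr1d1 and Nr1d2 repress Arntl. In the heart, Arntl and Dbp peak in opposite parts of the day, and the clock of cardiomyocytes times metabolic and ion channel genes. Per1 transcription also answers within a short time to cAMP and glucocorticoid signals.

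Promoters of the members on which the results turn are shown first, from RefSeq on build GRCm38.p6, each reaching from 250 bases before to 50 bases after a transcript start, 5′ to 3′ on the gene's strand. Capitals mark matches, on either strand, to the E-box CACGTG, to TGACG (the core of cAMP response elements) and to AGGTCA (the core of sites for nuclear receptors such as REV-ERB and ROR). Matches to these 3 motifs do not overlap in the windows printed. Per1 is shown at 2 of its starts because it was the member higher in every transgenic sum, Tef because it was lower in every one on the normalized scale used below, and Ciart because it holds the most E-boxes.

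Per1, chr11:69098699-69098998, plus strand: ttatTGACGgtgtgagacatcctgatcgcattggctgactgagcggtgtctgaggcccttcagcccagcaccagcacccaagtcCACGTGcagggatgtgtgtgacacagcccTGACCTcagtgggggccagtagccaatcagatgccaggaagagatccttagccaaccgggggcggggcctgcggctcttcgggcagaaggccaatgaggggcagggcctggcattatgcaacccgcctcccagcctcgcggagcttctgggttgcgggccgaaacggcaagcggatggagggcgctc
Per1, chr11:69099902-69100201, plus strand: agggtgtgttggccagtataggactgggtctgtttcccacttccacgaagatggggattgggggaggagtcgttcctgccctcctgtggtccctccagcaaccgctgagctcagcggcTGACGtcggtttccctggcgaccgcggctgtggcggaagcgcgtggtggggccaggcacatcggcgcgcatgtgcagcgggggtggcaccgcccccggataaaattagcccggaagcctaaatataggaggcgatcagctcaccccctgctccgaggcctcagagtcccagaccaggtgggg
Tef, chr15:81802423-81802722, plus strand: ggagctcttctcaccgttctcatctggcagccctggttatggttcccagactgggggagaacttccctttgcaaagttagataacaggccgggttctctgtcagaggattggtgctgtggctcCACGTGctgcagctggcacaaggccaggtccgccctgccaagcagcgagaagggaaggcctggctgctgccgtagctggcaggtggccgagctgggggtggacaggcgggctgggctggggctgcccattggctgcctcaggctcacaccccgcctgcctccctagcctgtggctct
Ciart, chr3:95882179-95882478, minus strand: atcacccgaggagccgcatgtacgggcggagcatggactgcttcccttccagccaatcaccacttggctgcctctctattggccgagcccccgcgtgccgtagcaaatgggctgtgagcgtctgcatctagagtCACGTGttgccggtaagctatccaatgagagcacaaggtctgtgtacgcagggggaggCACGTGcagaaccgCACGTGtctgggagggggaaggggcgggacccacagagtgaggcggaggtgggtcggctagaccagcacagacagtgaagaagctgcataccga

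The first Per1 window held an E-box that began 166 bases before the start, a TGACG site 246 bases before it and an AGGTCA site 137 bases before it. The second held TGACG alone, 132 bases before its start. In the Tef window an E-box lay 127 bases before the start, and the Ciart window had 3 E-boxes, of which those nearest to the start lay 58 and 44 bases before it. Of 32851 promoter windows of mouse genes, 7.15% held an E-box, 20.8% TGACG and 16.3% AGGTCA. The D-box, to which DBP and TEF bind (TTATGTAA or TTACGTAA), stood in 1.06% of all windows and in none of the 14 windows found for 9 of the 10 members. Per2 had no entry. These matches describe letters, not binding, and no binding was measured.

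A few properties of the cells bear on all results. The summed counts were 4096609 for control mouse M73 and 13541467 to 40508124 for the other 7 sums, so that values of mouse M73 are the least precise. Of the 234 wells, 15 had fewer than 1000 detected genes, and 0 wells were copies of another well. Summed CM markers (8 of 8 detected in every sum) lay between 59206 and 74557 CPM (counts scaled to a library total of 1000000), with both controls (74557 and 70060 CPM in mice M26 and M73) above all 6 transgenic sums (59206 to 68256 CPM, and up to 68451 CPM without the well named next). Of the wells, 229 had more than 40000 CPM of these markers. A single well of the bright sum of mouse M25 went against its description as a CM: it had 1420 CPM of CM markers, against a median of 65813 over all wells, and 50106 CPM of the 8 fibroblast markers, against a median of 0.818. The transgene features hBAG and BAG-eGFP were present in it, at 867 and 142 CPM. It is called the fibroblast-type well below. Fibroblast markers summed to 2537 CPM in that sum with the well, 301 CPM without it and 33.4 to 514 CPM elsewhere. Endothelial markers (8 of 8 detected in every sum) lay between 167 and 517 CPM, immune markers (3 to 8 of 8 detected) between 0.317 and 91.6 CPM, and blood markers were highest, at 987 CPM, in the cells of mouse M72 labelled bright. Markers of smooth muscle cells and pericytes lay between 506 CPM (control mouse M73) and 1890 CPM (bright CMs of mouse M116). The human transgene feature hBAG was at 0.446 and 0.580 normalized CPM in the control sums of mice M26 and M73, at 280 and 209 in the bright and 10.3 and 91.1 in the dim sums of mice M25 and M116. In mouse M72 it stood at 110 in cells labelled bright and at 243 in cells labelled dim, against the order of the labels, so bright and dim are used for this mouse only as labels.

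Levels differ widely among the members. Per kilobase of merged exons, the median over the 8 sums of normalized CPM was highest for the repressor genes Nr1d1 (7.09) and Nr1d2 (7.05), followed by Per1 (4.403) and Tef (4.22), Clock (2.88), Cry1 (2.02), Dbp (1.15), Per2 (0.894), Arntl (0.761) and Ciart (0.216). Nr1d1 and Nr1d2 cannot be ranked, since single sums ranged from 3.60 to 15.7 for Nr1d1 and from 3.11 to 24.1 for Nr1d2. The order of others depended on the group: in the control mean Tef (7.58), Clock (5.47) and Per2 (3.36) stood above Per1 (2.07). All further levels are normalized CPM, that is, CPM scaled by trimmed mean of M values (TMM) factors over the 8 sums, and are compared within a gene only.

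**Figure D1:**
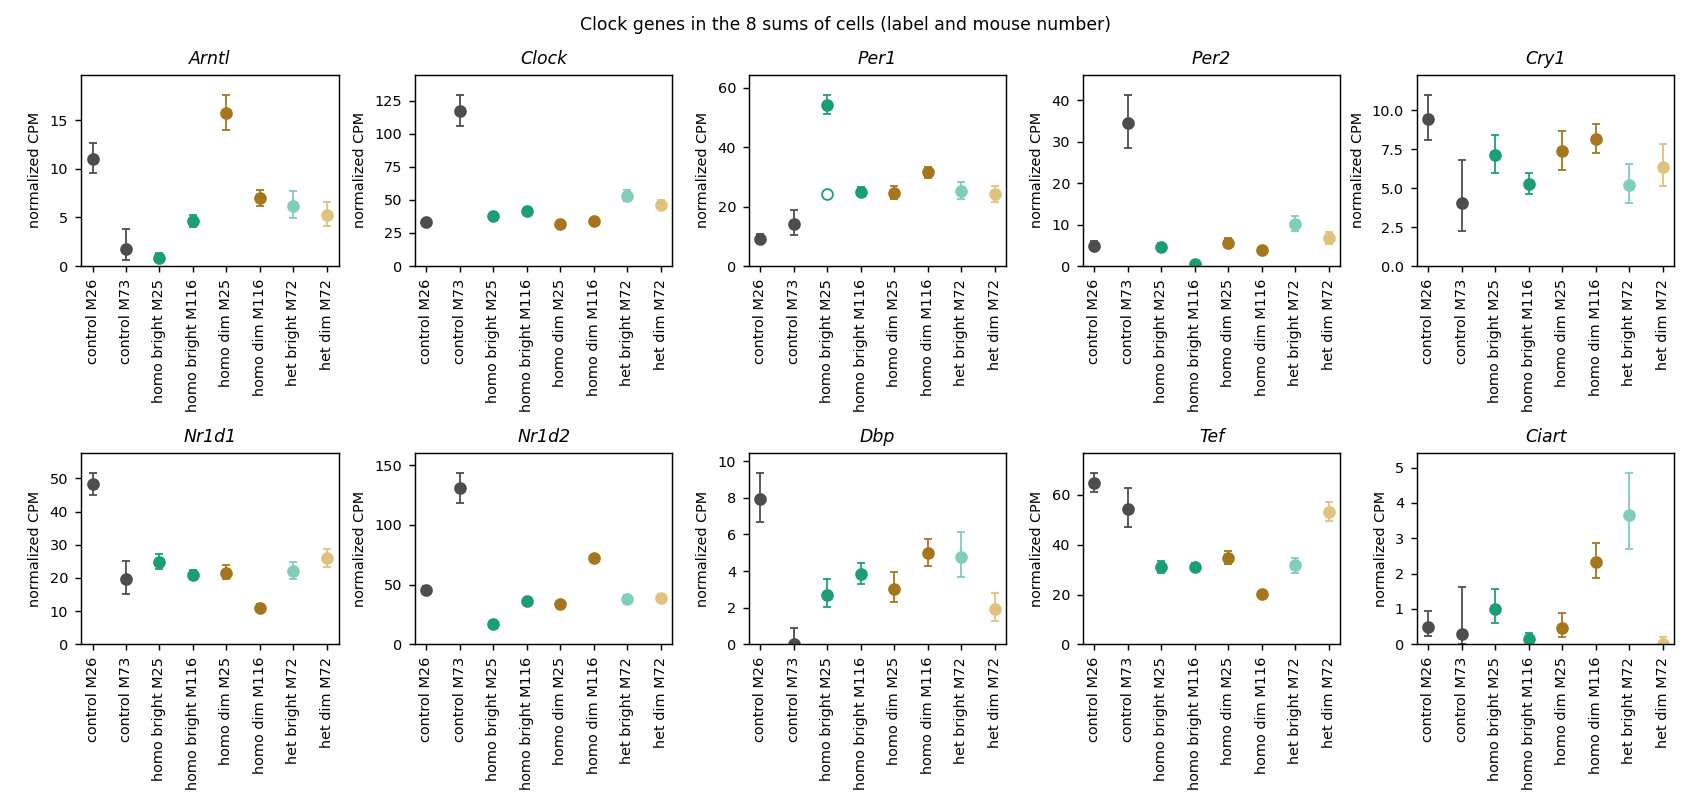
Normalized CPM (vertical axis, from 0) of each of the 10 clock genes in the 8 sums (horizontal axis, label and mouse number). Filled points are sums with exact Poisson intervals at the 95% level (for a sum at 0, the bar ends at the limit of 3 counts), which cover counting error only, and the open point in the Per1 panel is the bright sum of mouse M25 without the fibroblast-type well (24.2). Per1 is lower in both control sums than in the other 6 and Tef is higher (with overlapping intervals for control mouse M73 and the cells of mouse M72 labelled dim), while the control sums of mice M26 and M73 lie far apart for Arntl, Clock, Per2, Nr1d1 and Nr1d2.

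Per1, which encodes a repressor of the feedback loop, was higher in the homozygous sums than in the control sums. Its level was 9.15 and 14.2 in control mice M26 and M73, 54.2 and 25.001 in bright CMs of M25 and M116, 24.6 and 31.5 in their dim CMs, and 25.3 and 24.1 in the cells of mouse M72 labelled bright and dim. The control sums did not overlap with any transgenic sum. In ascending order, mouse M26 and mouse M73 were followed by 4 sums between 24.1 and 25.3 whose counting intervals overlap, then by the dim CMs of mouse M116 and the bright CMs of mouse M25. The highest of these values came from 1 well: the fibroblast-type well held 624 of the 1076 Per1 counts of its sum (734 CPM), and without it the level was 24.2. Group means were then 11.7 ± 3.65 for control, 24.6 ± 0.618 for bright and 28.0 ± 4.84 for dim CMs (SD, n = 2 mice each). In edgeR's quasi-likelihood test, the Per1 log2 fold change of bright against control CMs was 1.74 (SE 0.71, p = 0.0476, adjusted p = 0.761), and without the well it was 1.07 (p = 0.176, adjusted p = 0.952). For dim against control CMs it was 1.25 (SE 0.70, p = 0.119, adjusted p = 0.9503). The difference did not pass the adjusted threshold in either comparison. CM markers separated the same sums, being higher in both controls than in all transgenic sums, and their part in the differences of Per1 and of Tef was not tested.

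Across cells, Per1 was sparse. Among cells with at least 100000 counts, the median cell of control mice M26 and M73 had 0.699 and 7.18 CPM, while the median cell of the other 6 sums had between 10.2 and 22.3 CPM. No control cell exceeded 39.4 CPM. The highest cell of the transgenic sums had 113 to 406 CPM except in bright CMs of mouse M25, where it had 69.3 CPM once the fibroblast-type well (734 CPM) was left out. At an equal depth of 200000 counts, Per1 was counted in 9 of 20 cells (45.0%) of mouse M26 and in 5 of 8 cells (62.5%) of mouse M73, with exact Clopper-Pearson intervals of 23.1% to 68.5% and 24.5% to 91.5%, and in 61.1% to 66.7% of the cells of the other sums. The share of mouse M73 thus lay within the range of the transgenic sums. Without thinning the shares were 41.7% and 66.7% in the controls and 59.3% to 76.2% in the others. Without the cell with most counts in each sum, the level in CPM without TMM scaling was 6.22 and 9.82 in the controls and 19.0 to 28.9 in the others.

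**Figure D2:**
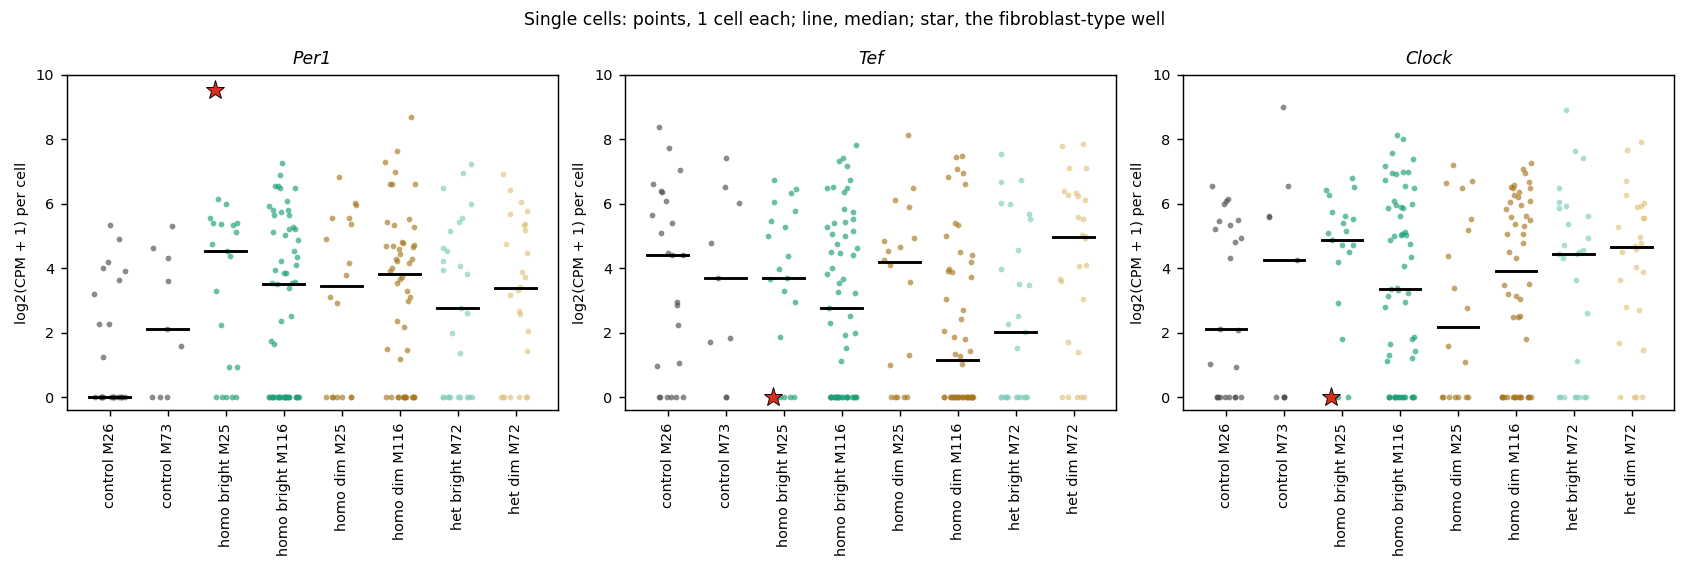
Per1, Tef and Clock in single cells (log2 of CPM + 1, vertical axis), grouped by label and mouse (horizontal axis). Each point is 1 cell, lines are medians and the star is the fibroblast-type well, which is the highest Per1 cell of all (734 CPM) and is at 0 for Tef and Clock.

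Tef, a PAR bZIP activator of the output branch, showed the opposite order. It was at 64.8 and 54.5 in control mice M26 and M73, at 30.9 and 31.1 in bright CMs and at 34.8 and 20.0 in dim CMs of mice M25 and M116. The cells of mouse M72 labelled bright had 31.7, and those labelled dim had 53.2, just under control mouse M73. The counting intervals of these last 2 sums overlap (49.5 to 57.2 and 47.0 to 62.9). Before TMM scaling their order was turned, at 55.0 and 45.9 CPM. Both homozygous groups lay below both controls, with means of 59.7 ± 7.30 for control, 31.0 ± 0.189 for bright and 27.4 ± 10.4 for dim CMs (SD, n = 2 mice each). The log2 fold change was -0.97 for bright (SE 0.44, p = 0.0718, adjusted p = 0.836) and -1.14 for dim CMs against control (SE 0.51, p = 0.0630, adjusted p = 0.859), and neither passed. The cells of mouse M116 were on 2 plates, and the plates differed as much as the groups. In bright CMs of this mouse Tef was at 17.2 CPM on plate GL9989-2 and at 52.9 CPM on plate GL9989-3, which is the level of the controls. In its dim CMs the order was turned, with 29.6 and 10.7 CPM.

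**Figure D3:**
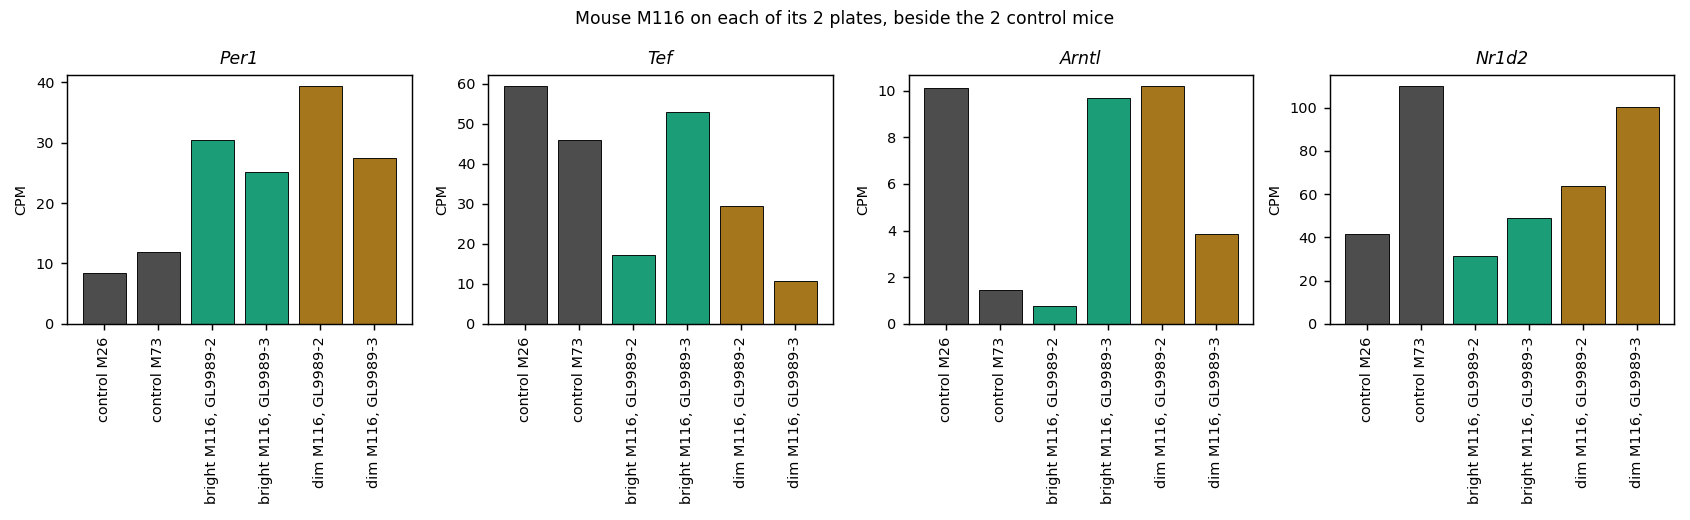
CPM (bars, from 0, without TMM scaling) of Per1, Tef, Arntl and Nr1d2 in the control sums and in the bright and dim CMs of mouse M116, divided by plate. For Per1 all 4 bars of mouse M116 (25.1 to 39.3 CPM) stand above both controls, whereas Tef, Arntl and Nr1d2 overlap with them.

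Dbp, the other PAR bZIP gene of the set, was low everywhere. Its level was 7.92 in control mouse M26 and 0 in control mouse M73, where 0 of 4096609 counts allows up to 0.870 normalized CPM (a limit of 3 counts). Bright CMs of mice M25 and M116 had 2.72 and 3.84, dim CMs 3.05 and 4.97, and the cells of mouse M72 labelled bright and dim 4.79 and 1.93. All 6 transgenic sums thus lay between the controls. The log2 fold changes were -0.30 ± 1.92 for bright and -0.03 ± 1.90 for dim CMs against control (SE), which leaves the direction undetermined.

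The activators behaved differently from each other. Arntl was at 11.05 and 1.74 in control mice M26 and M73, at 0.856 and 4.61 in bright and at 15.7 and 6.96 in dim CMs of M25 and M116, and at 6.23 and 5.22 in the cells of mouse M72. Dim CMs had more Arntl than bright CMs in both homozygous hearts. The log2 difference of bright minus dim was -4.20 within mouse M25, -0.59 within mouse M116 and 0.26 within mouse M72. In the fit of bright against dim CMs, which does not pair the labels of a heart, it was -2.05 (SE 0.99, p = 0.0880, adjusted p = 0.999). Over the alternative settings this value ranged from -3.72 to -0.75. The counts came from few cells: 6 of 59 bright cells of mouse M116 had any, and 1 of them gave 78.4% of the sum. On the plates of mouse M116, bright CMs had 0.773 and 9.70 CPM and dim CMs 10.2 and 3.85 CPM, so the order of bright and dim was turned between plates. Endothelial and immune markers were also higher in dim than in bright CMs of both homozygous hearts, at 517 and 359 against 180 and 167 CPM for endothelial and at 91.6 and 75.5 against 0.317 and 2.00 CPM for immune markers. Fibroblast markers were lower in dim CMs of mouse M25 (66.2 CPM, against 301 in bright CMs without the fibroblast-type well). Markers of smooth muscle cells and pericytes were lower in dim CMs of mouse M116 (1667 against 1890 CPM). Each of these lists was higher in dim CMs of the other homozygous heart. Without the wells over 2000 CPM of markers of other cells, the log2 fold change of bright against dim CMs was -2.07 for Arntl and -1.07 for Nr1d2, close to the values with all wells.

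Clock was at 32.9 in control mouse M26 and at 117 in control mouse M73. The other sums lay close together, at 37.5 and 41.5 in bright and 31.5 and 33.7 in dim CMs of M25 and M116, and at 53.3 and 46.4 in mouse M72. The high value of mouse M73 came from 1 of its 9 cells, which held 76.2% of the counts. Without the top cell of each sum, Clock was at 26.3 and 27.5 CPM in control mice M26 and M73, at 35.8 and 42.4 CPM in bright and 26.7 and 34.6 CPM in dim CMs of M25 and M116, and at 40.3 and 38.2 CPM in mouse M72. Bright CMs then lay above both controls, the reverse of the order of the fitted difference. Its log2 fold changes, -0.96 ± 0.66 for bright and -1.22 ± 0.65 for dim CMs against control (SE), turned to 0.27 for bright CMs without control mouse M73 and were -0.02 for dim CMs.

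Of the further repressors of the feedback loop, Per2 was high in control mouse M73 only, at 34.5 against 4.85 in control mouse M26. Bright CMs of mice M25 and M116 had 4.53 and 0.488, dim CMs 5.62 and 3.85, and the cells of mouse M72 had 10.2 and 6.72. In mouse M73 the Per2 counts came from 3 of 9 cells, with 53.8% in 1 of them. The log2 fold change was -3.01 ± 1.54 for bright and -2.07 ± 1.17 for dim CMs against control (SE; adjusted p = 0.862 and 0.954), and without control mouse M73 it was -0.95 and -0.042. Cry1, which encodes the partner of PER proteins, ranged from 4.06 (control mouse M73) to 9.43 (control mouse M26), so that the controls spanned all other sums. Its log2 fold changes of -0.15 ± 1.14 and 0.17 ± 1.11 (SE) for bright and dim CMs against control stayed well inside their error.

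The repressors of Arntl differed from each other. Nr1d1 was at 48.2 and 19.7 in control mice M26 and M73, at 24.9 and 20.9 in bright and 21.6 and 11.1 in dim CMs of M25 and M116, and at 22.0 and 26.01 in mouse M72. It overlapped between all groups, and its log2 fold changes against control were -0.59 ± 0.65 and -1.07 ± 0.73 for bright and dim CMs (SE). Over the alternative settings the value of dim CMs ranged from -1.58 to -0.29. Nr1d2 was at 45.2 and 130 in the controls, 16.8 and 36.0 in bright and 33.6 and 71.9 in dim CMs, and 37.7 and 38.6 in mouse M72. Bright CMs were below both controls and below the dim CMs of their own heart, where the log2 difference was -0.999 within mouse M25 and -0.9996 within mouse M116. Against control the log2 fold change of Nr1d2 in bright CMs was -1.77 (SE 0.69, p = 0.0416, adjusted p = 0.733), and without control mouse M73 it was -0.77 (adjusted p = 0.724). In bright against dim CMs it was -1.01 (SE 0.53, p = 0.109, adjusted p = 0.999) in the fit that does not pair the labels of a heart.

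Ciart, which encodes a repressor of CLOCK and BMAL1 activity, was seen in at most 3 cells of any sum. It was at 0.502 and 0.290 in control mice M26 and M73, 1.01 and 0.155 in bright and 0.473 and 2.34 in dim CMs of mice M25 and M116. In the dim CMs of mouse M116, 84 of 88 counts came from 1 cell, and in those of mouse M25 all 9 did. The cells of mouse M72 labelled bright had 3.65, all from 1 cell, and those labelled dim had 0 counts, which allows up to 0.214. Ciart did not pass the filter on low counts in the comparisons of bright or dim with control CMs.

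For the comparisons as a whole, 0 of 9 members tested passed an adjusted p of 0.05 in bright against control CMs, where 2 of 12203 genes (0.0164%) passed, namely the transgene features hBAG and BAG-eGFP. At an unadjusted p under 0.05, 2 members passed (Nr1d2 and Per1), against 6.55% of all genes, and without the fibroblast-type well 1 member passed (Nr1d2), against 6.16%. In dim against control CMs 0 of 9 members passed at the adjusted threshold (0% of 12195 genes) and 0 members at the unadjusted one (6.22%). In bright against dim CMs 0 of 10 members passed either way, where 0% and 4.12% of 13439 genes did (4.20% at the unadjusted threshold without the fibroblast-type well, again with 0 members). With bright and dim CMs of a heart summed, 0 of 10 members passed at the adjusted threshold (0.0151% of 13225 genes) and 2 at the unadjusted one, against 8.64%: Per1 with a log2 fold change of 1.51 (SE 0.61, adjusted p = 0.570) and Tef with -1.05 (SE 0.42, adjusted p = 0.572). Without the fibroblast-type well these were 1.15 and -1.02 (adjusted p = 0.770 and 0.607), and 0 members passed at the unadjusted threshold (8.37%). With DESeq2, 0 members passed at the adjusted threshold in any of the 4 comparisons, in which 0.754%, 0.435%, 0.677% and 0.930% of all genes did, in the order given. At the unadjusted threshold 4 members passed in bright against control CMs (Nr1d2, Per1, Per2 and Tef, against 8.31% of genes), 1 in dim against control CMs (Tef, 7.64%), 1 in bright against dim CMs (Arntl, 5.86%) and 3 with both summed (Per1, Per2 and Tef, 8.72%). The median log2 fold change of the members was -0.96 in bright and -0.75 in dim CMs against control, beside 0.11 and 0.10 over all genes tested.

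Groups of 2 mice separate often. In bright against control CMs Per1 lay above both controls, as did 24.3% of all genes, and Nr1d2, Per2 and Tef lay below both, as did 14.8%. In dim against control CMs these were Per1 (23.8%) and Tef (14.2%). In bright against dim CMs Clock was higher in both hearts (15.1%), and Arntl and Cry1 were lower (16.0%), with all bright and dim values apart. With the sums of mouse M72 included, Per1 was above both controls in all 6 transgenic sums, as were 7.20% of 16615 genes, and Tef was below in all 6, as were 4.34% (4.31% without the fibroblast-type well). For Tef this held on normalized CPM only. Before TMM scaling the cells of mouse M72 labelled dim had 55.0 CPM and control mouse M73 had 45.9 CPM. With bright and dim CMs of a heart summed, Per1 and Ciart lay above both controls (27.9% of genes) and Tef below (13.5%), 3 of 10 members where 41.4% of genes separated in either direction. For Ciart in mouse M116 this rested on the 1 dim cell named above, without which its dim CMs had 0.118 CPM. The share of members that separated was thus 4 of 9 in bright CMs against a background of 39.2%, and 2 of 9 in dim CMs against 38.0%.

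**Figure D4:**
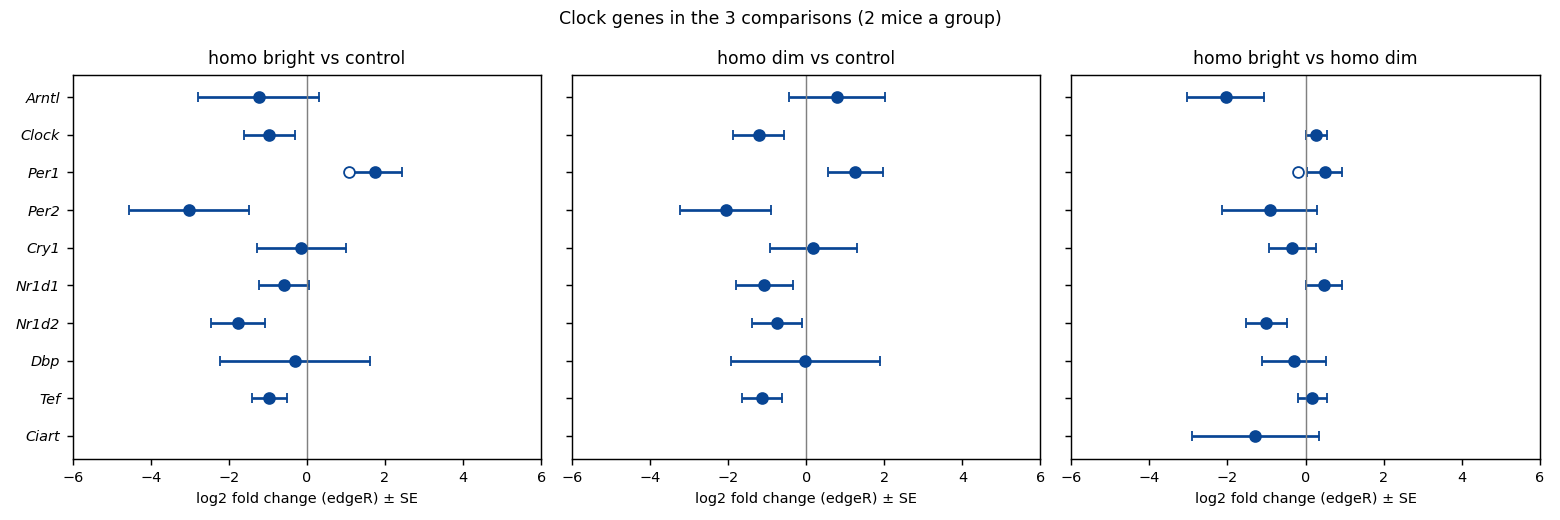
Log2 fold change from edgeR (horizontal axis, points with SE as bars) of each clock gene (vertical axis) in bright against control, dim against control and bright against dim CMs, with 2 mice in each group. Open points are Per1 without the fibroblast-type well (1.07 against control and -0.19 against dim CMs). Ciart was tested in the last comparison only, and no member passed the adjusted threshold.

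Transgenic cells shared a plate with a control for mice M25 and M72, but not for mouse M116. Mice M25 and M26 shared plate GL-9122b, mice M72 and M73 shared plate GL9989-1, and mouse M116 was on GL9989-2 and GL9989-3. Within the first plate, the log2 difference of Per1 to control mouse M26 was 2.57 in bright CMs (1.41 without the fibroblast-type well) and 1.43 in dim CMs. Against control mouse M73, it was 0.82 and 1.15 in the bright and dim CMs of mouse M116, and 0.83 and 0.76 in the cells of mouse M72, which share a plate with that control. For Tef the same differences were -1.07 and -0.90, -0.81 and -1.44, and -0.78 and -0.03. Per1 was thus higher and Tef lower in all 6, though for the cells of mouse M72 labelled dim Tef was lower only after TMM scaling. With the set of plates (GL-9122b against the 3 GL9989 plates) as a block, the Per1 log2 fold change in bright CMs was 1.68, and 1.10 without the fibroblast-type well, with an adjusted p of 1.00 in both. The difference between the controls was of similar size or larger for most members, at 1.83 for Clock, 2.83 for Per2, 1.53 for Nr1d2, -2.67 for Arntl and -1.29 for Nr1d1 (log2, mouse M73 minus mouse M26), but 0.63 for Per1 and -0.25 for Tef.

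To compare the balance of the loop without regard to scaling, the counts of Nr1d1, Nr1d2, Dbp, Tef, Ciart, Per1 and Per2 were divided by those of Arntl and Clock. The log2 ratio was 2.04 and 1.09 in control mice M26 and M73, 1.81 and 1.35 in bright and 1.39 and 1.84 in dim CMs of M25 and M116, and 1.19 and 1.55 in the cells of mouse M72. All transgenic sums lay between the controls. In mouse M73, however, 308 of the 410 counts of Arntl and Clock were Clock counts of 1 cell. The ratio of this mouse, and with it the place of the transgenic sums between the controls, thus rests on that cell. Without it the ratio of mouse M73 would be higher, but this was not computed. The mean differed from control by 0.015 in bright and by 0.050 in dim CMs, with p = 1.00 in both in a two-sided exact permutation test, which with 2 against 2 mice cannot go below 0.33. Without the fibroblast-type well the ratio of bright CMs of mouse M25 was 1.43 and the difference of bright CMs -0.18. Without control mouse M26 the difference was 0.49 in bright and 0.52 in dim CMs, and without control mouse M73 it was -0.46 and -0.42. It was -0.22 in bright and 0.28 in dim CMs without mouse M25, and 0.25 and -0.18 without mouse M116, so its direction turned with single mice of either group.

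Genes that act with the members were read from a list of 19 partners of the clock. Of the 17 tested, 11 had higher and 6 lower levels in bright CMs than in control, with a median log2 fold change of 0.21, and the same counts held in dim CMs with a median of 0.32, while 0 passed the adjusted threshold in edgeR or DESeq2. In edgeR 0 of them passed an unadjusted p under 0.05 in bright or dim CMs against control, where 6.55% and 6.22% of all genes did, and in DESeq2 1 and 0 did, beside 8.31% and 7.64%. Nfil3, which encodes a repressor that competes with DBP and TEF at D-boxes, had log2 fold changes of 1.504 ± 0.71 in bright and 1.35 ± 0.85 in dim CMs (SE). Without mouse M116 the value in dim CMs was 0.29. Rora, an activator of Arntl transcription, was at 16.5 and 117 in control mice M26 and M73 and at 27.4 and 24.1 in bright CMs of M25 and M116, between the controls. Its log2 fold change of -1.41 ± 0.90 (SE) turned to 0.65 without control mouse M73. Per3 had 1.32 ± 0.78 in dim CMs. Nono, a cofactor of PER proteins, had 0.82 ± 0.55 and 1.01 ± 0.54. Between bright and dim CMs, Btrc, a ubiquitin ligase subunit that targets PER proteins, had -1.45 ± 0.53 (SE, adjusted p = 0.999).

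Of 14 output genes of the clock in the heart, 5 were higher and 9 lower in bright CMs than in control (median log2 fold change -0.30), and 6 higher and 8 lower in dim CMs (median -0.31), with 0 past the adjusted threshold in edgeR or DESeq2. At an unadjusted p under 0.05, 1 passed in each comparison in edgeR (6.55% and 6.22% of all genes) and 3 and 2 in DESeq2 (8.31% and 7.64%). Kcnip2, which encodes a subunit of the channel for transient outward potassium current, had -0.92 ± 0.35 in bright CMs. Nampt, the rate-limiting enzyme of NAD salvage, had -1.59 ± 0.66 and -1.41 ± 0.64 in bright and dim CMs. Its level was 39.7 and 133 in control mice M26 and M73, 33.0 and 25.6 in bright and 28.7 and 37.1 in dim CMs of M25 and M116, and without mouse M73 the log2 fold changes were -0.43 and -0.28. Klf10, a transcription factor, had 3.47 ± 1.45 and 3.77 ± 1.47, and with equal weight of cells, on the scale of mean log2 of CPM + 1, 0.85 and 1.26. Its level was 0.893 and 0.290 in control mice M26 and M73, 6.70 and 7.50 in bright and 8.25 and 9.32 in dim CMs of mice M25 and M116.

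Because Per1 answers to signals other than the clock, targets of the glucocorticoid receptor and immediate-early genes were read beside it. Of 9 glucocorticoid targets, 8 were lower and 1 higher in bright CMs (median log2 fold change -1.69) and likewise in dim CMs (median -1.72). In edgeR 0 passed the adjusted threshold and 2 an unadjusted p under 0.05 in each, beside 6.55% and 6.22% of all genes. In DESeq2, 1 (Mt1) and 2 (Mt1 and Cdkn1a) passed the adjusted threshold, beside 0.754% and 0.435% of all genes, and 4 and 5 the unadjusted one, beside 8.31% and 7.64%. Mt1, a metallothionein gene, was at 1243 and 972 in the control sums and at 314 and 134 in bright and 315 and 118 in dim CMs of mice M25 and M116, with log2 fold changes of -2.33 ± 0.46 and -2.37 ± 0.51 (SE; adjusted p = 0.663 and 0.735). The cell cycle inhibitor gene Cdkn1a had -1.38 ± 0.35 and -1.72 ± 0.39. Of the immediate-early genes tested, 14 of 16 were higher in bright CMs (median 1.65) and 11 of 15 in dim CMs (median 1.03), with 0 past the adjusted threshold in edgeR and 3 and 2 at an unadjusted p under 0.05, beside 6.55% and 6.22% of all genes. In DESeq2, 2 (Atf3 and Btg2) passed the adjusted threshold in bright and 1 (Atf3) in dim CMs, beside 0.754% and 0.435% of all genes, and 6 and 4 the unadjusted one, beside 8.31% and 7.64%. Without the fibroblast-type well, 12 of 16 were higher in bright CMs (median 1.24), with 3 at an unadjusted p under 0.05, and Egr1 in bright CMs of mouse M25 went from 162 to 32.9, beside 31.9 in control mouse M26, and Junb from 151 to 26.3. Atf3, a stress-responsive factor, was at 9.65 and 12.2 in the controls, 35.6 and 221 in bright and 30.6 and 289 in dim CMs of mice M25 and M116. Its log2 fold changes of 3.54 and 3.86 became 1.68 and 1.46 without mouse M116. The antiproliferative gene Btg2 was at 77.8 and 42.6, at 163 and 333 and at 92.1 and 388. For Egr2, which was listed at 0 in both controls and was at most 1.10 elsewhere, no fold is given. With and without the well, the Per1 difference had the sign of the immediate-early median and the opposite sign to the glucocorticoid median (-1.91 in bright CMs without the well). The part of either list in the Per1 difference was not tested. In the fibroblast-type well the immediate-early genes Egr1 and Junb were at 3067 and 2950 CPM.

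The genes whose pattern was most like that of Arntl and of Dbp over the 8 sums were sought among 6245 genes with a mean of at least 10 normalized CPM, on the log2 scale with 1 added. For Arntl these were Pde7a (r = 0.905), Cpped1 (0.888) and Susd6 (0.879), and for Dbp they were Bcs1l (0.985), Cs (0.978) and Fkbp4 (0.978). The 8 sums share mice and differ in depth, and without control mouse M73, where Dbp is at 0, the Dbp values were 0.944, 0.947 and 0.917. These values are a description.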

How the data were processed

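Single CMs of 5 mice were sequenced by SMART-seq2. For the deposited counts, paired reads of 75 bases were mapped by the authors with STAR 2.7.0f (default settings) to the mouse genome with added human BAG3 and eGFP transcripts and reads per gene were counted with GeneCounts. The deposited counts are whole numbers without normalization. The genome build, annotation and strand column are not given in the sources used here, so reads of overlapping antisense genes cannot be told apart. A well held 487 to 1392253 counts (median 711527). PCR reads without molecular identifiers are not independent molecules, and intervals cover counting error only.

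Counts were summed per mouse and label. Each comparison was fitted over all genes with edgeR 4.0.16 (R 4.3.3: filterByExpr, TMM, glmQLFit, glmQLFTest, Benjamini-Hochberg adjustment, threshold 0.05) on the 4 sums of its groups. No label states how many separate dissociations were made, so p-values measure the spread between these mice. In each homozygous mouse, both labels come from 1 heart, so the sums are paired: over 6327 genes, which are not independent, the differences between mice M25 and M116 in bright and in dim CMs had a Pearson r of 0.117 and a Spearman rho of 0.209. The fit with the mouse as a replicate block gave 0 members past the threshold, as did the fit without it.

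Alternatives were DESeq2 1.42.0, library size, no filter, cells with at least 1000 genes, equal weight of cells (limma 3.58.1 on mean log2 of CPM + 1), all 8 sums in 1 fit, plate set as a block and each mouse left out. Fits without the fibroblast-type well or without the 25 wells over 2000 CPM of other cell markers, and levels without the top well of a sum, were chosen after seeing the data. Other cell markers here were those of fibroblasts, endothelial, immune and blood cells, without those of smooth muscle cells and pericytes. The fits were also run on simulated counts with the same dispersion for all genes. These do not copy the spread between these mice or the weight of single cells, so they do not show how the fits behave here. The members, lists and tests were chosen with earlier results of these data known. All 10 members were named, and of each further list the 3 genes with the lowest p in a comparison could be named. Merged exon lengths came from GENCODE M21, promoters from RefSeq. No column of the table was left unmapped.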

Additional observations from a re-analysis of the deposited data

Results flagged for a closer look

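The direction of the bright to dim difference in the single heterozygous mouse M72 was opposite to that in both homozygous mice for 4 members and for the transgene, and the difference between the genotypes was not tested. The share of all genes that turn in this way was not computed, so the count is no finding about the members. The log2 difference of bright minus dim in mouse M72 was 0.26 for Arntl (-4.20 and -0.59 in mice M25 and M116), 0.60 for Per2 (-0.31 and -2.98), -0.24 for Nr1d1 (0.20 and 0.91) and 1.31 for Dbp (-0.16 and -0.37). For hBAG it was -1.14 in mouse M72, against 4.76 and 1.20, and the second transgene feature BAG-eGFP also ran against the labels, at 65.4 normalized CPM in cells labelled bright and 202 in cells labelled dim. The other members with 1 sign in both homozygous hearts kept it in mouse M72, at 0.20 for Clock, -0.30 for Cry1 and -0.034 for Nr1d2. Without the fibroblast-type well Per1 also had 1 sign in both homozygous hearts (-0.024 and -0.33) and the opposite one in mouse M72 (0.059). Whether the labels of this mouse are exchanged was not tested. The heterozygous cells entered no test because they came from 1 mouse, and in both of their sums 1 member was above both control sums (20.0% of genes were) and 2 were below (11.1% of genes were), namely Nr1d2 (37.7 and 38.6 against 45.2 and 130) and Tef (31.7 and 53.2 against 64.8 and 54.5). The member above was Per1, whose lower value was 24.1 normalized CPM against 9.15 and 14.2 in the controls. Before TMM scaling, Tef was at 45.9 CPM in control mouse M73 and at 55.0 CPM in the dim-labelled cells of mouse M72. The lower hBAG value of this mouse was 110.0, against 0.446 and 0.580.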

How the results depend on the processing

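No member passed the adjusted threshold under any alternative except without control mouse M26, when mouse M73, with 9 cells, was the only control and was assumed to vary like the other sums. The number of members past it then ranged from 0 to 2 over the mice left out in dim against control CMs (Clock and Per2, where 5.89% of all genes passed) and from 0 to 4 with bright and dim CMs summed (also Nr1d2 and Dbp, where 20.8% of all genes passed). Per1 kept its direction against control in bright CMs (log2 1.07 to 2.19) and dim CMs (0.97 to 1.61), as did Tef (-1.06 to -0.49 and -1.54 to -0.80). With the mouse as a replicate block, Arntl had -2.34 and Per1 0.39 in bright against dim CMs, and no call changed.

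Other directions turned. With equal weight of cells, log2 fold changes against control became 0.67 (Clock), 0.32 (Cry1) and 0.019 (Dbp) in bright and 0.041 (Clock) and 0.15 (Dbp) in dim CMs, and Per2 became 0.0051 in bright against dim CMs. With library size, which moved the median of all genes from 0.11 to 0.41 in bright and from 0.10 to 0.38 in dim CMs against control, Cry1 became 0.13 in bright and Dbp 0.21 in dim CMs, both below those medians. DESeq2 gave 0.010 for Dbp in dim CMs. Rora in bright CMs against control became 0.067 with equal weight of cells and ranged from -2.22 to 0.65 with each mouse left out. Mt1 and Atf3 passed the adjusted threshold in bright and dim CMs with DESeq2, with no filter on counts and without homozygous mouse M25. With plate set as a block, Dbp became 1.39 in bright and 1.64 in dim CMs, and without the fibroblast-type well in addition Dbp was 1.44 and Cry1 0.0079 in bright CMs. Per1 in bright against dim CMs became -0.19 without that well and -0.11 without wells over 2000 CPM of other markers, where Dbp was 0.13 in dim CMs against control. The well moved Per1 by construction. For the other turns the cause was not tested.

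With each mouse left out, the range against control was -2.91 to 0.62 (Arntl), -1.60 to 0.27 (Clock), -0.60 to 0.56 (Cry1), -1.07 to 0.18 (Nr1d1) and -1.26 to 9.23 (Dbp) in bright CMs, and -0.29 to 0.91 (Cry1), -1.42 to 0.22 (Nr1d2) and -0.99 to 9.33 (Dbp) in dim CMs. The Dbp maxima depend on the prior count, since mouse M73 is at 0. In bright against dim CMs it was -0.18 to 0.95 (Per1), -0.60 to 0.11 (Dbp), -0.16 to 0.63 (Tef) and -3.16 to 0.28 (Ciart).

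The mean share of cells with a Per1 count was 37.5% in control, 59.8% in bright and 55.9% in dim CMs at 100000 counts a cell, and 60.7%, 73.1% and 66.4% at 400000. The number of genes past the threshold in all ranged from 0 to 163 in bright and from 0 to 827 in dim CMs against control, from 0 to 217 in bright against dim CMs and from 2 to 3285 with both summed. The ratio of Dbp to Arntl was not run, as Dbp is at 0 in mouse M73. With 2 mice a group and unknown collection times, phase, mouse and genotype cannot be told apart.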

Other observations

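Genes of the further lists had the following levels in the heterozygous mouse M72 (normalized CPM, cells labelled bright and dim). Mt1 was at 273 and 202, below both controls (1243 and 972), and Cdkn1a at 27.6 and 86.8, below 292 and 187. Atf3 was at 27.9 and 57.1, above both controls (9.65 and 12.2), and Btg2 at 127 and 120, above 77.8 and 42.6. Nfil3, at 9.88 and 11.4, lay between the controls (12.05 and 8.12). Klf10 was at 0.684 and 4.72, and its control values were 0.893 and 0.290. These values have no test.

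Within cells the members hardly varied together. Over 213 cells with at least 200000 counts, the fibroblast-type well left out, the highest Pearson correlation between any pair of members on the log2 scale was 0.15, for Nr1d1 and Ciart, and in counts this sparse a weak correlation is no finding.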
